A study of Homo sapiens with 4 samples.

Results

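Solute carriers are membrane proteins that move amino acids, sugars, ions, vitamins, metals and metabolites across the plasma membrane and the membranes of organelles. They form the SLC gene families, whose number in the symbol names the family. The 209 genes described here had a symbol that begins with SLC and a digit, without a hyphen and not ending in P and digits, as many pseudogene symbols do, and a mean of at least 1 FPKM (fragments counted relative to gene length and library size) over 4 libraries. They were 209 of 376 such symbols at any level and of 55764 gene names in all. Members were chosen by their mean FPKM over all 4 libraries, so no level is reported as a finding, while the comparison between the groups was not used in the choice. The genes nearest to the threshold were SLC6A13 at 0.988 and SLC16A4 at 0.978 FPKM below it, and SLC7A6OS at 1.07 and SLC27A5 at 1.07 FPKM above it. Of the members, 5 are not carriers but carry a carrier's name: SLC2A4RG, SLC4A1AP, SLC7A6OS, SLC9A3R1 and SLC9A3R2.

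The cells were TE5, a human oesophageal squamous cell carcinoma line. The 2 ETS1 libraries came from cells infected with a lentiviral vector that drives human ETS1, an ETS family transcription factor, from a CMV promoter. The 2 control libraries came from cells with the vector backbone alone, which the labels also call WT; all were grown in the same serum-supplemented medium. The sources used here do not say whether each line was a pool or a clone, or whether libraries 1 and 2 were separate cultures, so p-values measure the spread between these libraries, which may be technical.

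ETS1 itself was at 0.491 and 0.509 FPKM in the control libraries and at 1.84 and 1.87 FPKM in the ETS1 libraries. The groups did not overlap, with a ratio of means of 3.71 and a limma adjusted p of 7.04e-04; with only 6 arrangements of the 4 values, an exact two-sided permutation test could go no lower than its p of 0.333. The gene reached the filter of a mean of at least 1 FPKM, and so the limma test, only through the ETS1 group. Reads recovered from the FPKM values numbered 40356722 and 44119605 in the controls and 57269982 and 56502877 with ETS1, over the 16652 genes of the authors' comparison table. Members took between 1.14% and 1.18% of them in each library, and the 208 members whose reads were recovered had at least 85 reads in every library. The epithelial markers KRT8, KRT18, KRT19, EPCAM and CDH1 summed to between 16.1 and 16.9 FPKM per library, but moved unequally: KRT8 rose (ratio 1.68, limma adjusted p 5.91e-04), KRT18 fell (0.801, adjusted p 0.00223), EPCAM had a ratio of 0.748 (adjusted p 0.0525), and CDH1 (ratio 1.75) and KRT19 were under the level filter. The markers KRT5, KRT14 and TP63, which mark squamous cells, were at 0 in the controls and summed to at most 0.0289 FPKM with ETS1. The squamous label was therefore not borne out by these 3 markers. The 4 fibroblast markers summed to 2.10 to 2.19 FPKM in the controls and 2.98 to 3.02 FPKM with ETS1, nearly all of it COL1A1 (2.06 to 2.88 FPKM), while COL1A2 and DCN were at most 0.0122 FPKM and LUM went from 0.00822 and 0.0376 FPKM in the controls to 0.168 and 0.141 FPKM with ETS1. Of the leukocyte markers, PTPRC was at most 0.0117 FPKM, CD3E at most 0.0696 FPKM and CD14 at most 0.372 FPKM. The part of other cells in the results was not tested, and in bulk RNA fewer cells of a type and less RNA per cell cannot be told apart.

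Cells feed growth through carriers, and families divide the work by substrate. SLC1, SLC7 and SLC38 carry amino acids, with SLC3A2 as the heavy chain of several SLC7 exchangers. SLC2 carries hexoses, SLC16 monocarboxylates, SLC25 metabolites across the inner mitochondrial membrane, and SLC35 nucleotide sugars into the Golgi and the endoplasmic reticulum. SLC39 moves zinc into the cytosol and SLC30 moves it out.

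ETS factors bind a GGAA core, so the promoters of the members were searched for the 8 letters CCGGAAGT, a typical ETS site, on both strands from 250 bases before to 50 bases after the RefSeq start (GRCh38.p14). Promoters were matched for 170 of the 209 members. The 8 letters were present in 8 of these (4.71%), against 4.44% of all 27305 promoters and 9.17% of the 8924 matched promoters of tested genes. They stood in 5 of 61 promoters of members called higher (8.2%), in 2 of 49 of members called lower (4.08%) and in 1 of 60 of members not called (1.67%). These shares rest on few promoters, none exceeds the 9.17% of tested genes, and the same split was not made for all tested genes. The 30 bases around the site are printed for all 8 members, 5′ to 3′ on the gene's strand, from the largest rise to the largest fall, with the site in capitals (ACTTCCGG is the same site on the opposite strand).
SLC25A24: ccagctccctcACTTCCGGctctctggagg
SLC25A46: gACTTCCGGgtttccaacgtgACTTCCGGt
SLC30A7: cgcggcccgggCCGGAAGTaagcgaattcc
SLC38A10: ccctggccgtcACTTCCGGgcaacggagcc
SLC39A9: gagaggagccgCCGGAAGTcgtcgaaagtg
SLC15A4: ccggggcggggCCGGAAGTtccggcgagtg
SLC25A17: cgccccgcgacCCGGAAGTggttctagggc
SLC35A4: ccaaaaatgctCCGGAAGTgccttcgccct
The windows lie at chr1:108200408-108200437 (minus strand) for SLC25A24, chr5:110738973-110739002 (plus) for SLC25A46, chr1:100896077-100896106 (plus) for SLC30A7, chr17:81295318-81295347 (minus) for SLC38A10, chr14:69398322-69398351 (plus) for SLC39A9, chr12:128824072-128824101 (minus) for SLC15A4, chr22:40819376-40819405 (minus) for SLC25A17 and chr5:140564742-140564771 (plus) for SLC35A4. In GENCODE 29 the windows of SLC38A10 and SLC15A4 overlap no exon, and each of the others overlaps an exon of its own gene, with those of SLC25A24, SLC39A9 and SLC35A4 also overlapping an exon of another gene. A match is a description of these letters and not a bound site. SLC25A46 had 2 copies within the printed window, and SLC39A9 had a second copy after its start.

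Across the 209 members, 70 were called higher and 67 lower with ETS1 (limma, adjusted p under 0.05), which is 33.5% and 32.1%. Over all 14306 genes tested the shares were 30.7% higher and 28.4% lower, 59.1% in all against 65.6% of the members, so the share of carriers called lay near the background. The shares of 30.7% and 28.4% are the background for the counts by class and family below. Their median log2 change was 0.031, against 0.016 over all genes tested. The changes were mostly small: the median absolute log2 change of the 137 called members was 0.294 and 82.5% of them were under 0.5, on the log2(FPKM + 1) scale, which understates the change of low genes. A ratio of mean FPKM of at least 1.5 was seen for 16 members (background 6.86% of genes) and a ratio of at most 1/1.5 for 11 (background 6.56%). Both ETS1 values lay above both control values for 96 members and below them for 83, so 85.6% of members did not overlap between the groups, against 82% of all tested genes. The authors' deposited table calls 63 members higher and 68 lower, where it calls 26.5% and 27.7% of the genes tested here (54.2% in either direction); 129 of the 137 calls here are also made there in the same direction and 0 in the opposite one. Leaving out ETS1 library 1 left 44 higher and 44 lower, and leaving out ETS1 library 2 left 42 and 47. With no filter on low genes the counts were 46 and 51, and voom on the recovered reads called 72 higher and 76 lower, against 31.4% and 32.2% of all genes.

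**Figure D1:**
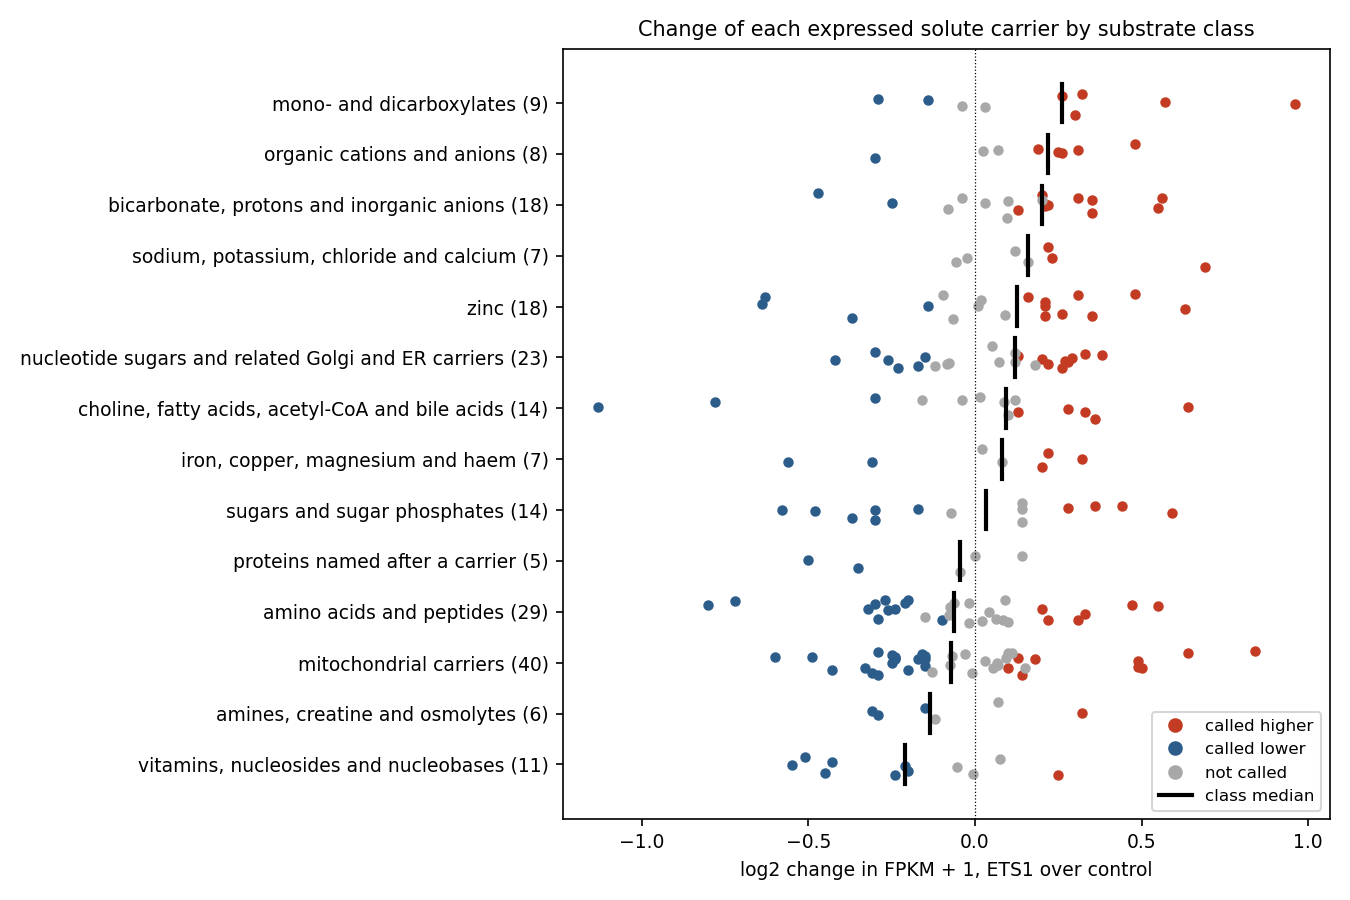
The log2 change in FPKM + 1 (ETS1 over control) of each of the 209 members is plotted on the x axis, by substrate class on the y axis with the number of members in brackets; colours give the limma call and black bars the class median. Medians run from -0.21 for vitamins, nucleosides and nucleobases to 0.26 for mono- and dicarboxylates, and most classes hold calls in both directions.

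**Figure D2:**
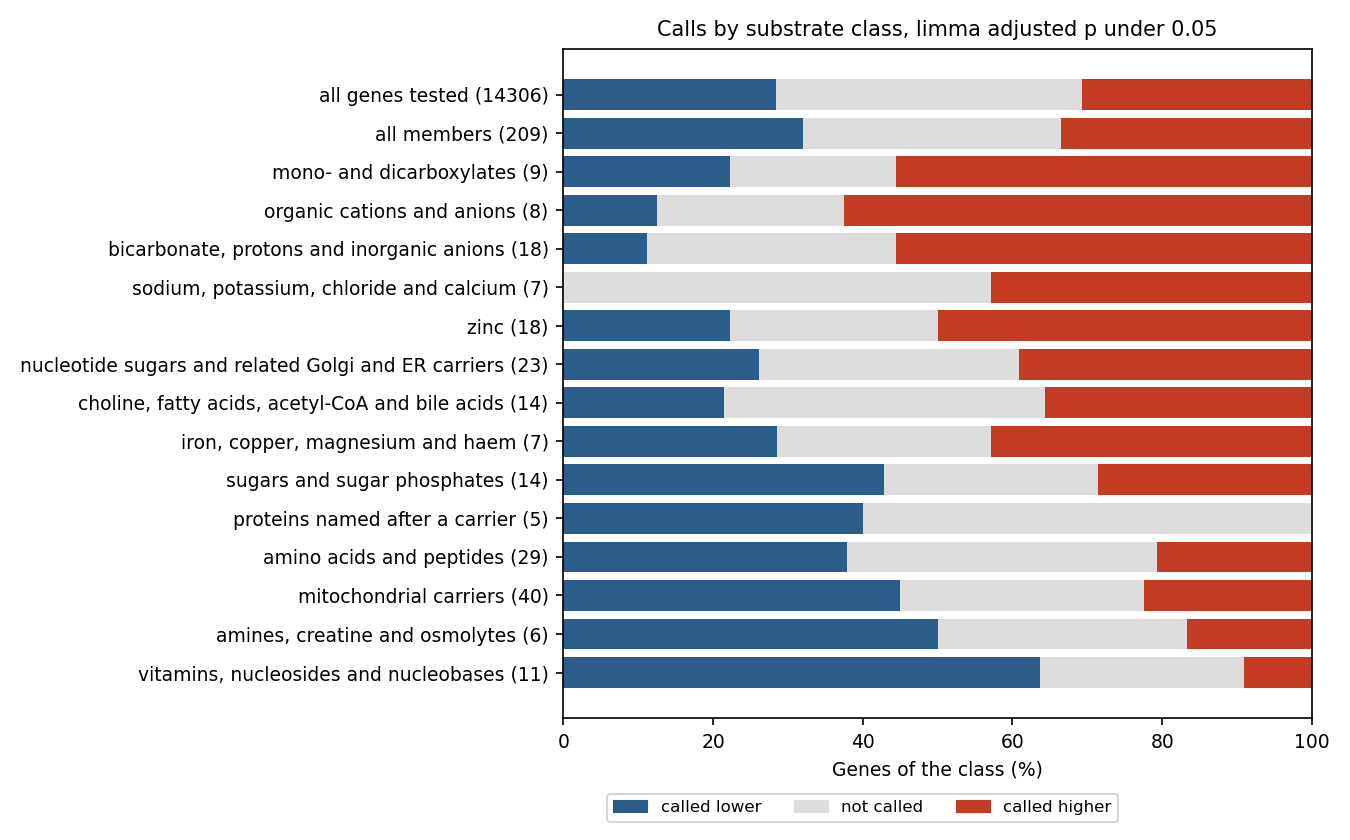
Bars give the percentage of each class called lower (blue), not called (grey) and called higher (red), with all tested genes and all members at the top and the number of genes in brackets. Of the 11 vitamin, nucleoside and nucleobase carriers 63.6% were called lower, against 28.4% of all tested genes. Of the 18 bicarbonate, proton and inorganic anion carriers 55.6% were called higher, against 30.7%.

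The largest changes of single members, ranked on the log2(FPKM + 1) scale, came from unlike classes; by the ratio of means SLC9A3, a sodium/proton exchanger at low level, came second at 2.1. SLC16A13, a member of the monocarboxylate transporter family, had 2.29 and 2.65 FPKM in the controls and 5.61 and 5.92 FPKM with ETS1, from 193 and 245 reads against 672 and 700. It rose 2.33-fold (log2 change 0.96 ± 0.0661 SE, limma adjusted p 7.37e-04). SLC25A24, a calcium-regulated ATP-magnesium/phosphate carrier of mitochondria, rose 1.99-fold, from 4.11 and 4.07 to 8.04 and 8.20 FPKM (adjusted p 4.39e-04). The largest fall was that of SLC27A2, a fatty acid transporter and very long-chain acyl-CoA synthetase. It had 8.96 and 8.88 FPKM in the controls and 3.65 and 3.44 FPKM with ETS1, a ratio of 0.397 (log2 change -1.13 ± 0.0405 SE, limma adjusted p 4.36e-04). SLC7A2, a cationic amino acid transporter, went from 5.36 and 5.23 to 2.55 and 2.69 FPKM, a ratio of 0.495. In each of these 4 genes the groups lay far apart relative to the gap between the libraries of a group, which follows from their choice as the largest calls.

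**Figure D3:**
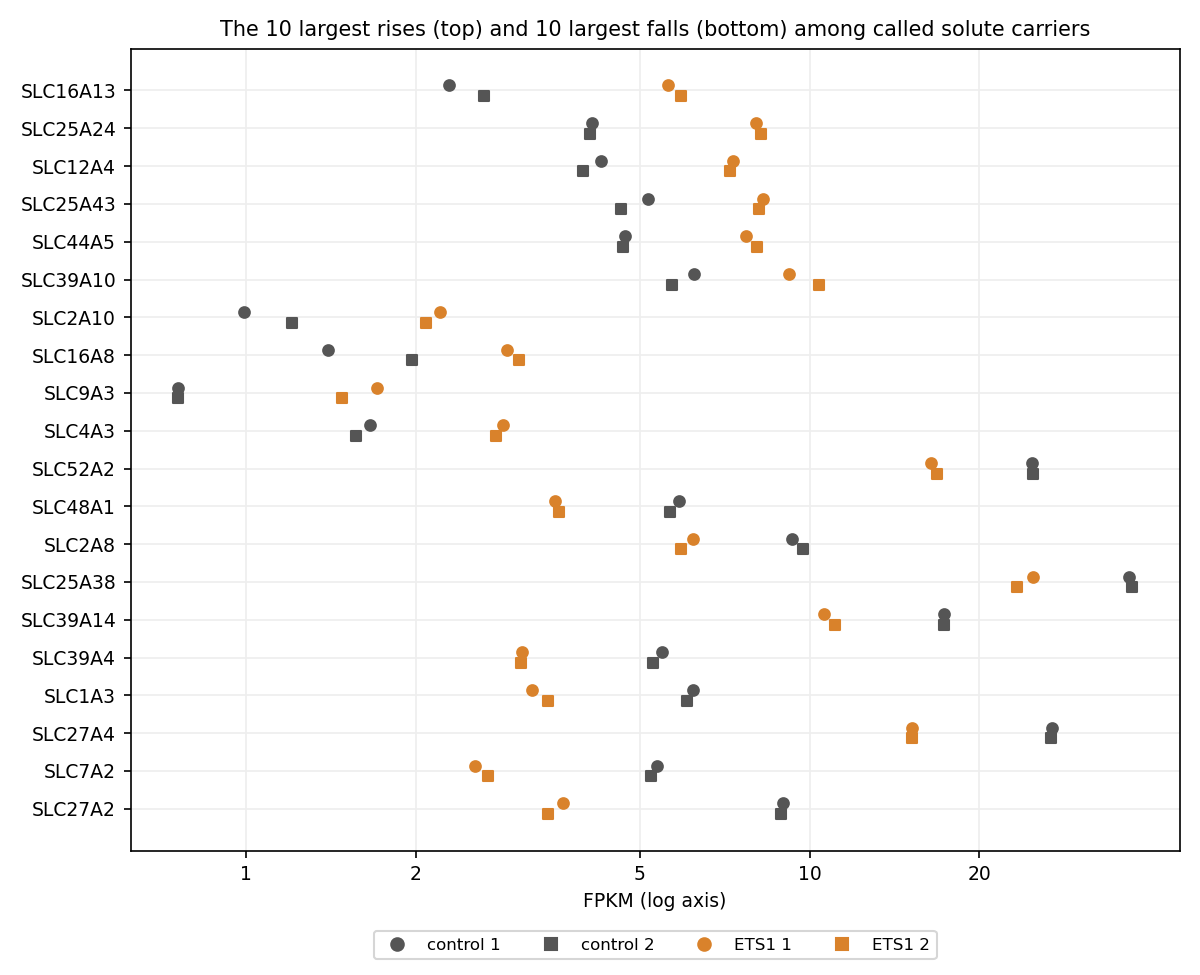
FPKM (log x axis) in each of the 4 libraries is plotted for the 10 called members with the largest rises on the log2(FPKM + 1) scale, from SLC16A13 down, and the 10 with the largest falls, ending with SLC27A2; grey marks are controls, orange marks ETS1, circles library 1 and squares library 2. In all 20 genes both ETS1 marks lie on the same side of both control marks, but they were chosen as the largest calls. Of all tested genes 82% do not overlap between the groups.

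Amino acid and peptide carriers had 6 of 29 members called higher (20.7%, background 30.7%) and 11 lower (37.9%, background 28.4%). The class median was -0.062 on the log2 scale. The most abundant of them fell. SLC1A5, the neutral amino acid exchanger that takes up glutamine, had 139.4 and 135.7 FPKM in the controls and 112.4 and 111.5 FPKM with ETS1 (ratio 0.814, adjusted p 0.00134). SLC7A5, the light chain of the large neutral amino acid exchanger LAT1, had 65.6 and 66.1 against 53.8 and 53.0 FPKM (ratio 0.81, adjusted p 0.00113). Its heavy chain SLC3A2 had 69.7 and 70.6 against 66.6 and 64.4 FPKM, a ratio of 0.933 with a limma adjusted p of 0.0375. That call was lost under 4 of 12 alternatives and in each fit that left out 1 library, and quantile normalization turned its sign (0.069, adjusted p 0.073).

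Other importers in this class fell further. SLC1A3, a glial-type glutamate and aspartate transporter, had 6.20 and 6.05 FPKM in the controls and 3.22 and 3.44 FPKM with ETS1, a ratio of 0.543 (adjusted p 6.44e-04). SLC43A2, a facilitative carrier of large neutral amino acids, had 2.40 and 2.57 against 1.80 and 1.77 FPKM (ratio 0.717, adjusted p 0.00604). For both genes all ETS1 values were below all control values. Both were chosen from called members, and 82% of all tested genes did not overlap between the groups.

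Rises were led by SLC7A11, the cystine/glutamate exchanger light chain that supplies cysteine for glutathione. It had 5.28 and 5.12 FPKM in the controls and 7.92 and 8.24 FPKM with ETS1 (ratio 1.55, log2 change 0.55 ± 0.0387 SE, limma adjusted p 7.71e-04). SLC7A3, a cationic amino acid transporter, had 9.24 and 8.16 against 12.8 and 12.1 FPKM (ratio 1.43, adjusted p 0.00358), so SLC7A3 and SLC7A2 were called in opposite directions. SLC1A4, the alanine, serine and cysteine transporter, rose 1.30-fold from 6.97 and 6.5 to 8.69 and 8.80 FPKM (adjusted p 0.00304), opposite to its family members SLC1A3 and SLC1A5. SLC38A2, a sodium-coupled neutral amino acid transporter, had 28.3 and 26.4 against 31.8 and 32.3 FPKM (ratio 1.17, adjusted p 0.00941); without ETS1 library 2 its adjusted p was 0.0502. SLC38A9, the lysosomal arginine sensor of the mTORC1 pathway, was not called (3.00 and 2.85 against 3.09 and 2.88 FPKM, adjusted p 0.732). Without ETS1 library 1 or ETS1 library 2 the number called lower in the class fell from 11 to 6.

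Sugar and sugar phosphate carriers split, with 4 of 14 called higher (28.6%, background 30.7%), 6 lower (42.9%, background 28.4%) and a median of 0.032. The 4 include SLC2A13, named after its value was seen, which passed the level filter only through the ETS1 group and lost its call under 5 of 11 alternatives. SLC2A1 (GLUT1), the widespread basal glucose transporter, had 11.0 and 11.2 FPKM in the controls and 8.83 and 8.90 FPKM with ETS1 (ratio 0.798, adjusted p 0.00183). SLC2A3 (GLUT3), a glucose transporter of high affinity, had 1.04 and 0.969 against 1.71 and 1.72 FPKM (ratio 1.71, adjusted p 0.00346). SLC2A3 has a close paralogue whose reads may be shared, so its value is uncertain.

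SLC2A10 (GLUT10) rose most in this class, 1.95-fold, from 0.994 and 1.21 to 2.21 and 2.09 FPKM (adjusted p 0.00299). SLC37A4, which brings glucose 6-phosphate into the endoplasmic reticulum, rose 1.31-fold from 8.92 and 8.89 to 12 and 11.4 FPKM (adjusted p 0.00164). SLC2A8 (GLUT8), an intracellular hexose transporter, had 9.31 and 9.75 against 6.20 and 5.91 FPKM (ratio 0.635, adjusted p 8.13e-04). SLC50A1, the most abundant carrier of the class, fell from 41.9 and 39.5 to 29.3 and 28.7 FPKM (ratio 0.712, adjusted p 9.78e-04). SLC2A6 fell to a ratio of 0.728 (adjusted p 0.00249). The groups did not overlap for any of these 5 genes, which were chosen from called members. Of all tested genes 82% did not overlap.

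Mono- and dicarboxylate carriers had 5 of 9 members called higher (55.6%, background 30.7%), 2 lower (22.2%, background 28.4%) and a median of 0.26. SLC16A1 (MCT1), the main lactate and pyruvate transporter and the most abundant member of the class, was not called, with 39.5 and 37.3 FPKM in the controls and 37.7 and 40.8 FPKM with ETS1 (adjusted p 0.644). The groups overlapped. SLC16A3 (MCT4), the lactate exporter of glycolytic cells, was not a member, with 0.148 to 0.19 FPKM in the 4 libraries. Behind SLC16A13, SLC16A8 (MCT3) had 1.40 and 1.97 against 2.90 and 3.05 FPKM (ratio 1.76, adjusted p 0.0103), with a wide gap between the controls; the call was lost with no filter.

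Other calls in this class were weaker. SLC16A9 had 6.41 and 5.47 against 7.69 and 7.59 FPKM (ratio 1.29, adjusted p 0.0155), and its adjusted p was 0.0577 without ETS1 library 1 and 0.0528 without ETS1 library 2. SLC16A6 (ratio 0.722, adjusted p 0.0217) lost the call without control library 2 or ETS1 library 1. Leaving out ETS1 library 1 or ETS1 library 2 left 2 called higher in the class, and 0 were called lower without control library 2 or ETS1 library 1 and 1 without ETS1 library 2.

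Mitochondrial carriers, the 40 members of SLC25, had 9 called higher (22.5%, background 30.7%) and 18 lower (45%, background 28.4%), with a median of -0.071. The adenine nucleotide carriers exchange ADP for ATP across the inner membrane, and SLC25A5 was the most abundant of all 209 members. It had 516.2 and 507.6 FPKM in the controls and 434.3 and 427.7 FPKM with ETS1 (ratio 0.842, adjusted p 0.00216). The other adenine nucleotide carriers and the phosphate carrier were looked at after their values were seen. SLC25A6 was not called, with 292.2 and 311.7 against 307.7 and 308.9 FPKM (adjusted p 0.526). SLC25A4 fell from 9.22 and 9.23 to 8.15 and 8.22 FPKM (ratio 0.887, adjusted p 0.0115). SLC25A3, the phosphate carrier, had 123.4 and 120.2 against 107.9 and 104.6 FPKM (ratio 0.872, adjusted p 0.00544), a call that quantile normalization ended. SLC25A5, SLC25A6 and SLC25A3 have processed pseudogenes that can share their reads, so their values are uncertain.

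The 3 largest falls in the family were those of SLC25A38, SLC25A37 and SLC25A39. SLC25A38, a carrier needed for the glycine that starts haem synthesis, had 36.9 and 37.3 FPKM in the controls and 24.9 and 23.3 FPKM with ETS1 (ratio 0.65, adjusted p 6.69e-04). SLC25A37 (mitoferrin-1), which imports iron, had 7.03 and 7.23 against 4.84 and 4.70 FPKM (ratio 0.669, adjusted p 8.92e-04). SLC25A39, a mitochondrial glutathione transporter, had 72.1 and 72.3 against 53.6 and 53.2 FPKM (ratio 0.739, adjusted p 5.82e-04). SLC25A28 (mitoferrin-2), named after its value was seen, changed less, from 50.1 and 47.9 to 43.9 and 43.2 FPKM (ratio 0.888, adjusted p 0.0106), and its call ended under quantile normalization and with the length trend removed.

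On the log2(FPKM + 1) scale the largest rises after SLC25A24 were those of SLC25A43 and SLC25A36; by the ratio of means SLC25A40, named after its value was seen, came before SLC25A36 at 1.55 (adjusted p 0.00207), as did SLC25A46. SLC25A43 had 5.17 and 4.63 FPKM in the controls and 8.28 and 8.14 FPKM with ETS1 (ratio 1.67, adjusted p 0.0011). SLC25A36, a pyrimidine nucleotide carrier, had 12.4 and 11.9 against 16.9 and 18.5 FPKM (ratio 1.45, adjusted p 0.00178). SLC25A46, an outer-membrane protein that acts in mitochondrial dynamics and whose promoter holds 2 of the printed sites, had 7.38 and 6.56 against 9.47 and 11.0 FPKM (ratio 1.47, adjusted p 0.00692). SLC25A17, a peroxisomal carrier with 1 printed site, fell from 18.2 and 18.1 to 16.6 and 16 FPKM (ratio 0.897, adjusted p 0.0146). Both were named after their values were seen. Without ETS1 library 1 the class had 5 called higher, and without ETS1 library 2 it had 11 called lower.

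Zinc carriers had 9 of 18 members called higher (50%, background 30.7%), 4 lower (22.2%, background 28.4%) and a median of 0.13. In SLC30, the exporters, 4 of 7 members were called higher (57.1%, background 30.7%) and 0 lower (background 28.4%) by limma. The same 4 had an unadjusted p under 0.05, and voom and the authors' deposited comparison also called 0 of the 7 lower. SLC39, the importers, had 5 of 11 called higher (45.5%, background 30.7%) and 4 lower (36.4%, background 28.4%). The difference between the 2 families was not tested. SLC30A9, a mitochondrial zinc transporter, had 12.6 and 11.7 FPKM in the controls and 15.7 and 15.9 FPKM with ETS1 (ratio 1.30, adjusted p 0.00293). The other SLC30 and SLC39 genes below that are outside the naming rule were named after their values were seen. Not every member of these families is described, and SLC30A3 and SLC30A4, not called, are among those left out. SLC30A5, SLC30A6 and SLC30A7 load zinc into the early secretory pathway. SLC30A7, with a printed site at its start, had 3.46 and 3.11 against 4.18 and 4.42 FPKM (ratio 1.31, adjusted p 0.00972). SLC30A5 had 8.88 and 8.42 against 10.5 and 10.5 FPKM (ratio 1.22, adjusted p 0.00446). SLC30A6 had 5.68 and 5.78 against 6.53 and 7.06 FPKM (ratio 1.19, adjusted p 0.0151), and its call ended with no filter and with the chromosome median removed. SLC30A1, the zinc-induced exporter of the plasma membrane, overlapped between the groups, with 5.21 and 4.24 against 4.84 and 5.31 FPKM (adjusted p 0.443).

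Among the importers, SLC39A10 and SLC39A6, which form a complex at the plasma membrane, both rose. SLC39A10 had 6.23 and 5.69 FPKM in the controls and 9.18 and 10.4 FPKM with ETS1 (ratio 1.64, log2 change 0.63 ± 0.0717 SE, limma adjusted p 0.00218). SLC39A6 had 25.8 and 25.1 against 35.7 and 36.4 FPKM (ratio 1.41, adjusted p 6.48e-04). Both ETS1 values of each gene were above both control values, but the genes were chosen from called members. Of all tested genes 82% did not overlap. SLC39A9, whose promoter holds a printed site, had 9.27 and 8.97 against 10.9 and 10.5 FPKM (ratio 1.18, adjusted p 0.00749).

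Of the SLC39 genes called lower, SLC39A4 and SLC39A14 changed most. SLC39A14, which takes up zinc, manganese and non-transferrin-bound iron, had 17.3 and 17.3 FPKM in the controls and 10.6 and 11.1 FPKM with ETS1 (ratio 0.624, log2 change -0.63 ± 0.0348 SE, limma adjusted p 5.39e-04). SLC39A4, the intestinal zinc importer mutated in acrodermatitis enteropathica, had 5.47 and 5.28 against 3.09 and 3.08 FPKM (ratio 0.575, adjusted p 6.48e-04). SLC39A3 had 9.62 and 9.75 against 7.39 and 7.19 FPKM (ratio 0.753, adjusted p 0.00133). SLC39A1, the most abundant zinc carrier, changed least of the 4, from 47.4 and 46.8 to 42.5 and 42.6 FPKM (ratio 0.904, adjusted p 0.00798), and lost the call under quantile normalization and without either ETS1 library. SLC39A14 and SLC39A4 lie on chromosome 8, where tested genes had a median of -0.16.

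Genes that respond to free zinc were read from a fixed list of 8 metallothioneins and MTF1, the zinc-sensing transcription factor. MT2A, the only metallothionein of the list past the level filter, fell from 13.3 and 10.9 to 8.40 and 7.52 FPKM (ratio 0.658, adjusted p 0.00953), and MTF1 rose from 1.83 and 1.89 to 2.39 and 2.23 FPKM (ratio 1.24, adjusted p 0.0254). The MT2A call was lost with no filter, and the MTF1 call under 4 of 11 alternatives.

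**Figure D4:**
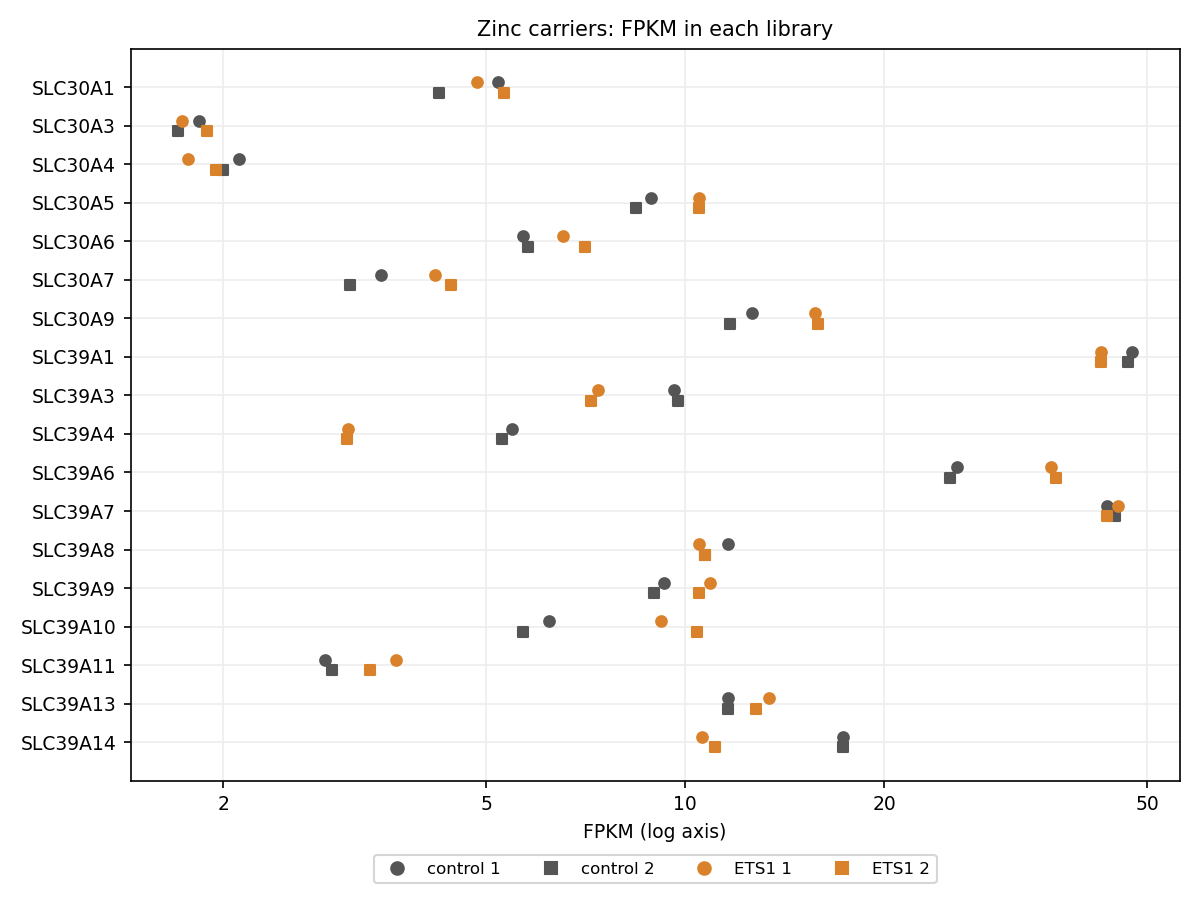
FPKM (log x axis) of the 18 zinc carriers in each library is plotted, with SLC30 genes above SLC39 genes, controls in grey, ETS1 in orange, library 1 as circles and library 2 as squares. SLC30A5, SLC30A6, SLC30A7 and SLC30A9 lie to the right with ETS1, while SLC39A1, SLC39A3, SLC39A4 and SLC39A14 lie to the left.

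Carriers of iron, copper, magnesium and haem had 3 of 7 members called higher (42.9%, background 30.7%) and 2 lower (28.6%, background 28.4%). SLC48A1, which exports haem from endosomes and lysosomes into the cytosol, had 5.86 and 5.65 FPKM in the controls and 3.54 and 3.59 FPKM with ETS1 (ratio 0.62, adjusted p 7.66e-04). SLC31A1, the copper importer, had 13.8 and 13.8 against 10.9 and 11.1 FPKM (ratio 0.793, adjusted p 0.00153). SLC40A1, ferroportin, the iron exporter, rose from 0.852 and 0.863 to 1.37 and 1.26 FPKM (ratio 1.53, adjusted p 0.0122), and lost the call without ETS1 library 1 (adjusted p 0.0713). It passed the level filter only through the ETS1 group. SLC41A3 rose 1.18-fold (adjusted p 0.0107) and SLC41A2 1.22-fold (adjusted p 0.0494). The SLC41A3 call ended with the length trend removed or without ETS1 library 1, and that of SLC41A2 under 7 of 11 alternatives and without any 1 of the 4 libraries, so 0 were called higher without ETS1 library 1.

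Carriers of bicarbonate, protons and inorganic anions set cell pH and phosphate. Of the 18 members 10 were called higher (55.6%, background 30.7%) and 2 lower (11.1%, background 28.4%), with a median of 0.20. SLC9 genes exchange sodium for protons. SLC9A3, the exchanger of absorptive epithelia, had 0.759 and 0.759 FPKM in the controls and 1.71 and 1.48 FPKM with ETS1 (ratio 2.1, adjusted p 0.0031), from 85 and 93 reads against 272 and 233, and it reached the level filter through the ETS1 libraries. SLC4A3, an anion exchanger, had 1.66 and 1.57 against 2.86 and 2.78 FPKM (ratio 1.75, adjusted p 0.00134).

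Both phosphate importers of the SLC20 family fell. SLC20A1, the most abundant carrier of this class, had 25.2 and 24.9 FPKM in the controls and 21.2 and 20.7 FPKM with ETS1 (ratio 0.838, adjusted p 0.00251). SLC20A2 had 4.15 and 3.96 against 2.56 and 2.74 FPKM (ratio 0.654, adjusted p 0.00181), and lies on chromosome 8. Without ETS1 library 1 the class had 5 called higher, without ETS1 library 2 it had 6, and with the length trend removed it also had 6.

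Among 7 carriers of sodium, potassium, chloride and calcium, 3 were called higher (42.9%, background 30.7%) and 0 lower (background 28.4%) by limma. The threshold was an adjusted p under 0.05. The same 3 had an unadjusted p under 0.05, and none of the 7 is called lower in the authors' deposited comparison. SLC12A4, the potassium-chloride cotransporter KCC1, had 4.27 and 3.97 FPKM in the controls and 7.31 and 7.23 FPKM with ETS1 (ratio 1.76, log2 change 0.69 ± 0.0439 SE, limma adjusted p 6.51e-04). SLC12A7, KCC4, rose 1.20-fold from 5.48 and 5.25 to 6.42 and 6.49 FPKM (adjusted p 0.0064). SLC12A2, the sodium-potassium-chloride importer NKCC1, did not overlap between the groups (1.89 and 1.60 against 1.95 and 2.16 FPKM) but was not called (adjusted p 0.143), except by voom on recovered reads. SLC24A1 had 2.51 and 2.63 against 3.23 and 3.06 FPKM (ratio 1.23, adjusted p 0.017), and lost the call with no filter, with the length trend removed, and without control library 1 or either ETS1 library. WNK1, the kinase that controls SLC12 cotransporters, rose from 10.8 and 10.4 to 15.6 and 16.2 FPKM (ratio 1.50, adjusted p 7.04e-04). Of the fixed list of partners and regulators of carriers, 5 of 11 tested genes were called higher (45.5%, against 30.7% of all tested genes) and 2 lower (18.2%, against 28.4%), and 4 of the 7 calls were lost under at least 1 alternative. Among them were NEDD4L, a ubiquitin ligase of membrane channels, at a ratio of 2.05 (adjusted p 0.00185), which passed the level filter only through the ETS1 group, and WNK4 at 0.782 (adjusted p 0.0162). The sodium-potassium ATPase list, the pump whose gradient drives many carriers, had 2 of 6 called higher and 2 lower. That was 33.3% each (background 30.7% and 28.4%), with ATP1B2 at a ratio of 1.54, ATP1B3 at 0.874 and ATP1B1 at 0.877. The ATP1B2 and ATP1B1 calls were lost with no filter and that of ATP1B3 under quantile normalization.

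Carriers of vitamins, nucleosides and nucleobases had 1 of 11 members called higher (9.09%, background 30.7%) and 7 lower (63.6%, background 28.4%). Their median was -0.21. SLC52A2, a riboflavin importer, had 24.8 and 24.9 FPKM in the controls and 16.4 and 16.8 FPKM with ETS1 (ratio 0.668, log2 change -0.55 ± 0.0294 SE, limma adjusted p 5.20e-04). SLC5A6, the sodium-dependent importer of biotin and pantothenate, had 14.4 and 13.7 against 10.1 and 9.93 FPKM (ratio 0.713, adjusted p 0.00108). SLC19A1, the reduced folate carrier, had 5.70 and 5.74 against 4.75 and 4.91 FPKM (ratio 0.844, adjusted p 0.00872), and its adjusted p was 0.0597 without ETS1 library 1.

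The equilibrative nucleoside transporters of SLC29 take up nucleosides and many nucleoside drugs, and 3 of 4 were called lower (75%, background 28.4%). SLC29A1 (ENT1) had 20.9 and 20.1 FPKM in the controls and 13.8 and 14.4 FPKM with ETS1 (ratio 0.686, adjusted p 8.30e-04). SLC29A2 (ENT2), named after its value was seen, had 16.2 and 16.8 against 12.2 and 11.7 FPKM (ratio 0.726, adjusted p 0.00111). The single rise of the class was SLC23A2, an ascorbate importer, from 8.15 and 7.70 to 9.29 and 9.90 FPKM (ratio 1.21, adjusted p 0.00972), which was lost without ETS1 library 2 (adjusted p 0.0527). Without ETS1 library 1 the class had 4 called lower. SLC52A2 lies on chromosome 8, and with the chromosome median removed its log2 change was -0.41 (adjusted p 3.31e-04).

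Choline, fatty acid, acetyl-CoA and bile acid carriers had 5 of 14 called higher (35.7%, background 30.7%) and 3 lower (21.4%, background 28.4%). SLC27 genes take up and activate fatty acids. Of the 6 members 2 were called lower (33.3%, background 28.4%), 1 higher (16.7%, background 30.7%) and 3 were not called. The rise, that of SLC27A3 (ratio 1.12, adjusted p 0.042, named after its value was seen), held under 2 of 11 alternatives. SLC27A2 and SLC27A4 fell, and SLC27A4, an acyl-CoA synthetase of the endoplasmic reticulum, had 26.9 and 26.8 FPKM in the controls and 15.2 and 15.2 FPKM with ETS1 (ratio 0.565, log2 change -0.78 ± 0.0269 SE, limma adjusted p 4.23e-04). Of the choline transporter-like family SLC44, 3 of 4 were called higher (75%, background 30.7%) and 0 lower (background 28.4%). None of the 4 is called lower in the authors' deposited comparison, and SLC44A2, named after its value was seen, changed by 0.10 (adjusted p 0.0733). SLC44A5 had 4.71 and 4.67 against 7.71 and 8.07 FPKM (ratio 1.68, adjusted p 6.20e-04). SLC44A1, the choline transporter of the family that is best known, had 3.42 and 3.22 against 4.26 and 4.20 FPKM (ratio 1.27, adjusted p 0.00587), a call that ended with the length trend removed. SLC44A3 had 0.979 and 0.911 against 1.51 and 1.47 FPKM (ratio 1.58, adjusted p 0.00717) and passed the level filter only through the ETS1 group. SLC33A1, which brings acetyl-CoA into the endoplasmic reticulum, rose 1.30-fold from 5.74 and 5.73 to 7.21 and 7.76 FPKM (adjusted p 0.00354). SLC10A3 fell from 17.5 and 17.4 to 14 and 14 FPKM (ratio 0.802, adjusted p 0.00138).

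Nucleotide sugar and related carriers of SLC35 supply the Golgi and the endoplasmic reticulum for glycosylation. Of the 23 members 9 were called higher (39.1%, background 30.7%) and 6 lower (26.1%, background 28.4%). Their median was 0.12, with a range from -0.42 to 0.38. SLC35A1, the CMP-sialic acid transporter, had 8.48 and 7.88 FPKM in the controls and 6.19 and 5.56 FPKM with ETS1 (ratio 0.718, adjusted p 0.00453). SLC35A2, the UDP-galactose transporter, had 10.6 and 10.6 against 8.62 and 8.26 FPKM (ratio 0.794, adjusted p 0.00239). SLC35A3, a UDP-N-acetylglucosamine transporter, went the other way, from 4.72 and 4.49 to 5.50 and 6.18 FPKM (ratio 1.27, adjusted p 0.0138), and lost the call with no filter and without ETS1 library 2. SLC35F2 fell to a ratio of 0.821 (adjusted p 0.0023).

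SLC35E2B had the largest rise of the family, 1.35-fold, from 6.78 and 6.93 to 9.38 and 9.12 FPKM (adjusted p 0.00128). It has a near-identical neighbour in SLC35E2, so the 2 can share reads and its value is uncertain. SLC35E1 rose 1.30-fold from 6.37 and 6.56 to 8.56 and 8.23 FPKM (adjusted p 0.00221). SLC35A4, the most abundant of the family and the one with a printed site, fell from 32.1 and 31.6 to 27.0 and 26.9 FPKM (ratio 0.845, adjusted p 0.00222). Without ETS1 library 2 the class had 4 called higher.

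Organic cation and anion carriers had 5 of 8 members called higher (62.5%, background 30.7%) and 1 lower (12.5%, background 28.4%). SLC22A15 had 1.34 and 1.45 FPKM in the controls and 2.40 and 2.28 FPKM with ETS1 (ratio 1.68, adjusted p 0.0025). SLC47A1 (MATE1), a proton-coupled exporter of organic cations, had 3.42 and 3.54 against 4.74 and 4.42 FPKM (ratio 1.31, adjusted p 0.00498). SLC22A18 had 1.24 and 1.21 against 1.70 and 1.63 FPKM (ratio 1.36, adjusted p 0.0154), and lost the call with no filter and without either ETS1 library. SLC17A5, sialin, the lysosomal sialic acid exporter, fell from 8.62 and 8 to 6.44 and 6.73 FPKM (ratio 0.792, adjusted p 0.00595). The class had 3 called higher without ETS1 library 1 and 2 without ETS1 library 2.

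Carriers of amines, creatine and osmolytes had 1 of 6 called higher (16.7%, background 30.7%) and 3 lower (50%, background 28.4%). SLC6A8, the creatine importer, had 19.1 and 19.4 FPKM in the controls and 17.0 and 17.4 FPKM with ETS1 (ratio 0.894, adjusted p 0.0106), and its adjusted p was 0.0764 without ETS1 library 1. SLC6A6, the taurine importer, had 1.43 and 1.21 against 0.802 and 0.934 FPKM (ratio 0.658, adjusted p 0.0257), and SLC6A4, the serotonin transporter, 1.29 and 1.46 against 0.938 and 0.946 FPKM (ratio 0.686, adjusted p 0.0199). SLC18A2, the vesicular monoamine transporter, had 4.73 and 3.75 against 5.28 and 5.73 FPKM (ratio 1.30, adjusted p 0.0446). SLC6A6 and SLC6A4 passed the level filter only through the control group, where they are high. Each of SLC6A6, SLC6A4 and SLC18A2 lost its call with no filter and in 3 of the 4 fits that left out 1 library, so 0 were called higher without control library 2 or either ETS1 library, and 0 lower without ETS1 library 1 and 1 without ETS1 library 2.

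Of the 5 proteins that only carry a carrier's name, the scaffold proteins SLC9A3R1 and SLC9A3R2 (NHERF1 and NHERF2), which anchor membrane transporters to the cytoskeleton, fell. SLC9A3R1 had 22.3 and 23.1 FPKM in the controls and 17.7 and 17.4 FPKM with ETS1 (ratio 0.774, adjusted p 0.00131). SLC9A3R2 had 9.61 and 9.51 against 6.30 and 6.60 FPKM (ratio 0.675, adjusted p 8.30e-04). SLC2A4RG, a transcription factor, was at 38.4 and 39.0 against 38.5 and 38.9 FPKM (adjusted p 0.99).

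The position of the members moved with the calls. Of 20 members on chromosomes 8, 9 and 15, 2 were called higher and 14 lower, while of 188 members on other chromosomes 68 were called higher and 53 lower. Chromosome 8 held 8 members, of which 7 were called lower (SLC7A2, SLC20A2, SLC25A37, SLC39A4, SLC39A14, SLC45A4 and SLC52A2), beside 49% of 418 tested genes there. Chromosome 9 held 8, with 6 called lower (among them SLC27A4, SLC2A6, SLC2A8 and SLC31A1), beside 45.5% of 483 tested genes. Chromosome 15 held 4, with SLC27A2 called lower, beside 58.5% of 390 tested genes. With each library's chromosome median removed, 13 of the 14 were still called lower; SLC27A2 changed by -0.90 (adjusted p 1.54e-04), SLC7A2 by -0.65 (adjusted p 2.43e-04) and SLC27A4 by -0.69 (adjusted p 1.47e-04), and SLC45A4, named after its value was seen, did not pass (-0.15, adjusted p 0.076). Gene length moved with the changes too: across the 209 members, which are not independent replicates, the rank correlation of log2 change with inferred gene length was 0.236, against 0.288 over all tested genes. The part of either in the results was not tested further.

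**Figure D5:**
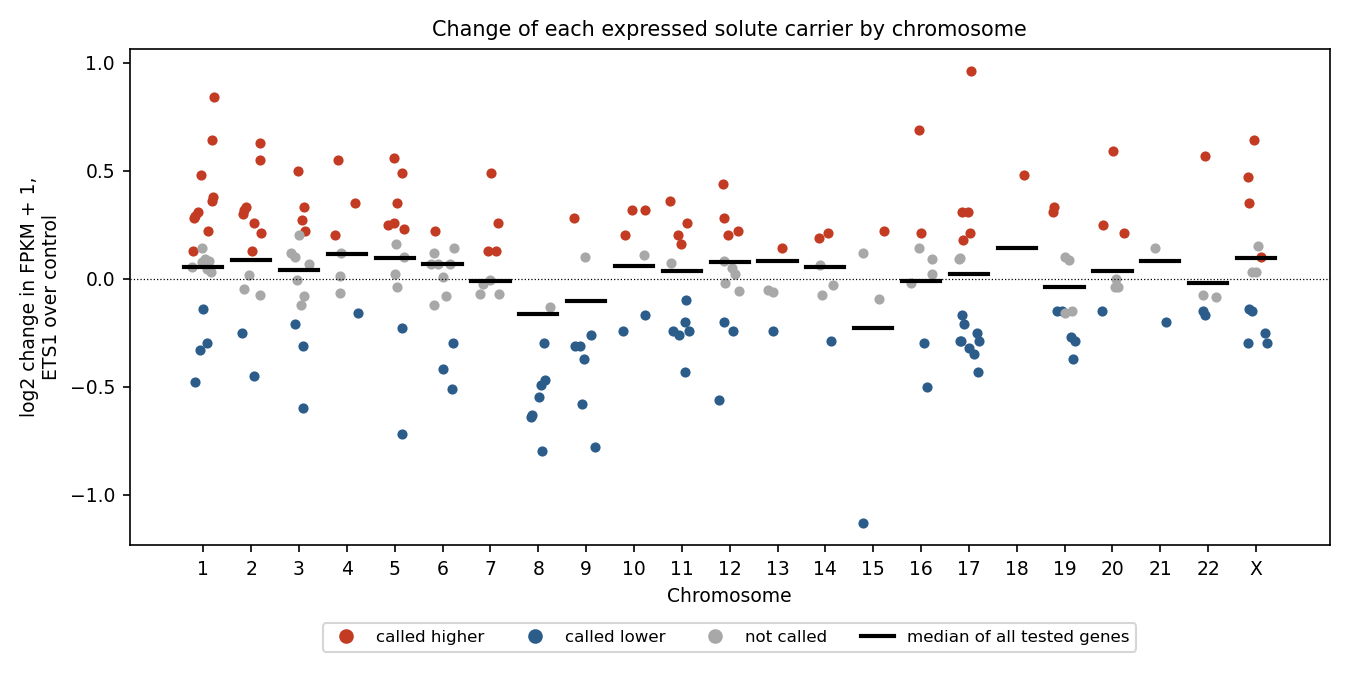
The log2 change in FPKM + 1 (ETS1 over control) of each member with a position is plotted on the y axis by chromosome on the x axis; colours give the limma call and black bars the median of all tested genes of that chromosome. On chromosome 8, 7 of 8 members are called lower, and the lowest point, SLC27A2 on chromosome 15, lies at -1.13.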

How the data were processed

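RNA of 2 control and 2 ETS1 libraries was sequenced. The deposited FPKM values were made by the authors; the submitters' processing notes name HISAT2, HTSeq, DESeq2, hg38 and GRCh38, and the annotation and use of strand are not given in the sources used here, so overlapping and antisense genes cannot be told apart. The authors' deposited comparison of 16652 genes gives a mean normalized count per gene (a signal over all libraries), log2 fold changes with standard errors, and p-values and adjusted p-values, per the file headers; for 969 of the genes it holds no adjusted value.

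Here log2(FPKM + 1) of the 14306 genes with a mean of at least 1 FPKM was fitted with limma 3.58.1 in R 4.3.3, with a group term, an intensity trend and 2 residual degrees of freedom; p-values are two-sided, adjusted over all genes by Benjamini and Hochberg's method, and called at 0.05. A call described as lost no longer reached that threshold. Reads were recovered from the FPKM values and the authors' mean normalized counts: for 99.6% of genes all 4 values came within 0.001 of a whole number, and for 208 of 209 members. Mean chi-square per gene between the libraries of a group was 3.95 in both groups, above counting error if reads are taken as independent molecules, and each library was counted as 1 replicate. The fit was tested on simulated data, where the share of false calls was above the nominal threshold, which bears on all counts of calls.

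Members, substrate classes, gene lists and tests were chosen with earlier results of these data known. Genes named are ETS1, 20 fixed carriers, in each class the 3 called members with the largest rise and the 3 with the largest fall on the log2 scale and the most abundant, and at most 3 per list; others are marked. Some genes that this rule names are not reported here. Positions are from GENCODE 29 (GRCh38) for 208 members. Alternatives were another pseudocount, other filters, scalings, priors and thresholds, a replicate block, removal of the chromosome median, the authors' deposited comparison and each library left out; a crossed block, a fit without the length trend and voom run on the recovered reads were chosen after seeing the data.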

Additional observations from a re-analysis of the deposited data

How the results depend on the processing

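Of the 137 calls, 88 (40 higher, 48 lower) held at the threshold of 0.05 in each other fit that tested the gene; the stricter threshold and leaving out a library were read separately. For the genes that the naming rule chose, leaving aside those named after their values were seen, 1023 values under an alternative kept their side of the threshold, 48 lost the call, 1 gained it and 3 changed sign with a call on either side; when a library was left out, 300 kept their side and 40 lost the call. Values not called could change sign among those kept, as SLC16A1 and SLC38A9 did with the chromosome median or the length trend removed. SLC2A4RG, not called, changed by 0.11 under quantile normalization and by 0.091 with the length trend removed, and SLC3A2 by 0.069 under quantile normalization; the cause was not tested. With no filter, 46 members were called higher, and the counts were 0 higher and 1 lower for amines, creatine and osmolytes, 6 lower for amino acids, 5 higher for bicarbonate, protons and anions, and 1 higher and 0 lower for mono- and dicarboxylates. With a mean of at least 5 FPKM, which leaves 114 members, 38 were called higher; counts were 0 higher and 1 lower for amines, 5 lower for amino acids, 3 higher and 1 lower for bicarbonate, 2 higher for choline and fatty acids, 1 higher and 1 lower for iron and copper, 1 higher and 1 lower for carboxylates, 0 higher for organic ions, and 1 higher and 3 lower for sugars. At an adjusted p under 0.01, 37 were called higher; counts were 0 and 0 for amines, 6 lower for amino acids, 4 higher for bicarbonate, 0 higher for iron and copper, 5 higher for mitochondrial carriers, 1 higher and 0 lower for carboxylates, 4 higher for nucleotide sugars and 2 higher for organic ions. The amines had 0 higher also under quantile normalization, the replicate block, no intensity trend and the chromosome median removed. Quantile normalization, no intensity trend and the length trend removed each called 1 protein named after a carrier higher. With the length trend removed, counts were 6 higher for bicarbonate, 3 higher for choline and fatty acids, 1 higher for iron and copper, and 1 lower for sodium, potassium, chloride and calcium.

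With the replicate number as a block, 58 members were called higher and 62 lower, and carboxylates had 1 lower; same-numbered libraries share only a number (correlation of deviations -0.0456). Crossing the numbers gave 69 and 66.

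Leaving out 1 library at a time gave 42 to 63 members called higher and 44 to 59 lower. Higher and lower counts ran over 0 to 1 and 0 to 2 for amines, 4 to 7 and 6 to 9 for amino acids, 5 to 8 and 2 to 2 for bicarbonate, 4 to 4 and 3 to 3 for choline and fatty acids, 0 to 2 and 2 to 2 for iron and copper, 5 to 7 and 11 to 18 for mitochondrial carriers, 2 to 5 and 0 to 2 for carboxylates, 4 to 11 and 4 to 6 for nucleotide sugars, 2 to 5 and 1 to 1 for organic ions, 0 to 0 and 2 to 2 for proteins named after a carrier, 2 to 3 and 0 to 0 for sodium and potassium, 3 to 4 and 4 to 6 for sugars, 0 to 1 and 4 to 6 for vitamins, and 6 to 8 and 3 to 4 for zinc. ETS1 changed by 0.92 to 0.94. Where a group has 1 library left, it is assumed to vary like the other group.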

Other observations

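Among the 167 SLC genes under the level filter, 13 had recovered reads, and of these SLC16A5 and SLC16A4 had larger ratios of mean FPKM (5.64 and 3.69) than any member; ratios of the others, at lower levels, are not given. The 4 genes of this paragraph are named after their values were seen and have 20 to 301 reads per library. SLC16A5, of the monocarboxylate transporter family, had 0.321 and 0.147 FPKM in the controls and 1.29 and 1.34 FPKM with ETS1, with a log2 change of 2.40 in the authors' deposited table (adjusted p 7.64e-14). SLC16A4, of the same family, had 0.391 and 0.443 against 1.49 and 1.59 FPKM, and 1.79 in the authors' deposited table (adjusted p 4.72e-13). SLC7A7, a light chain of a cationic and neutral amino acid exchanger, had 0.502 and 0.34 against 1.02 and 0.852 FPKM, and 1.04 in the authors' deposited table (adjusted p 9.94e-06). SLC25A48, a mitochondrial carrier, had 1.11 and 1.04 against 0.547 and 0.558 FPKM, and -0.91 in the authors' deposited table (adjusted p 3.89e-06). The groups did not overlap for any of these 4 genes, which were picked by their values, so this adds no support.

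Of 31 carriers whose symbols do not begin with SLC and a digit, 21 passed the level filter, and 6 were called higher (28.6%, against 30.7% of all tested genes) and 8 lower (38.1%, against 28.4%) by limma. Of the 14 calls, 6 were lost under at least 1 alternative. SFXN4, a sideroflexin of the mitochondrial inner membrane, had 48.7 and 46.9 FPKM in the controls and 31.1 and 31 FPKM with ETS1 (ratio 0.649, adjusted p 4.86e-04). SFXN3, a mitochondrial serine transporter, went from 5.92 and 5.96 to 9.2 and 8.96 FPKM (ratio 1.53, adjusted p 6.48e-04). SV2A, a synaptic vesicle glycoprotein, went from 6.42 and 6.19 to 9.47 and 9.75 FPKM (ratio 1.52, adjusted p 7.45e-04).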
